A study of Mus musculus with 12 samples.

Results

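Accessible chromatin at the start sites of the nuclear genes for oxidative phosphorylation was followed in 3 cell sorts of the mouse forebrain, in wild-type (WT) and SgshKO animals. The peaks were those whose centre lay within 1000 bp of the start site of a gene named Nduf, Sdha to Sdhd, Uqc, Cox4 to Cox8 or Atp5. The microglial table had 117 such peaks, at 84 genes, of 91770 peaks. The table of NeuN+ nuclei had 112, at 77 genes, of 107627, and that of Olig2+ nuclei 111, at 77 genes, of 82577. In all, 340 of 281974 peaks were members. They covered 87 genes, of which 72 had a member peak in each of the 3 tables. The choice used gene names and positions and no measured level.

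Open chromatin was read by ATAC-seq: the Tn5 transposase cuts and tags DNA where it can reach it, and more reads in a peak mean more accessible DNA. SgshKO mice lack sulfamidase, a lysosomal enzyme that takes part in the breakdown of heparan sulfate. All animals were of the C57BL/6 strain and 4 months old, and each of the 6 groups (3 sorts, 2 genotypes) had 2 libraries. Microglia, the resident macrophages of the brain, were sorted as live CD11b+ CD45low CX3CR1+ cells. Neuronal nuclei (NeuN+, PU.1-, OLIG2-) and oligodendrocyte-lineage nuclei (OLIG2+, PU.1-, NeuN-) came from lightly formaldehyde-fixed tissue, so that sort and preparation cannot be told apart. Nothing in the labels says whether the 2 libraries of a group came from separate animals, so p-values measure the spread between libraries, which may be technical.

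Oxidative phosphorylation makes ATP in the inner mitochondrial membrane. Complex I (the Nduf genes) takes electrons from NADH and complex II (the Sdh genes) takes them from succinate. They pass through complex III (the Uqcr genes) to cytochrome oxidase, complex IV (the Cox genes), which reduces oxygen. The proton gradient that is built up drives ATP synthase (the Atp5 genes), whose F1 head makes ATP and whose Fo part carries the proton flow. A few subunits are coded by mitochondrial DNA, and all those measured here are coded by the nucleus. Promoters of these genes are known for binding the transcription factors NRF1, GABPA (an ETS factor) and YY1. Neurons depend heavily on this pathway, and microglia can shift between it and glycolysis.

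Levels are given as tags normalized by the depositors to 10000000 tags per library. Libraries held between 10771659 and 19555924 tags. The share of tags that fell in peaks was 30.9% to 31.8% for Olig2+ nuclei. For microglia it was 55.8% and 48.7% in WT and 67.4% and 53.7% in SgshKO, with SgshKO replicate 1 the highest. For NeuN+ nuclei it was 26.7% and 25.9% in the WT libraries and 21.5% and 21.2% in the SgshKO libraries. Markers of each sorted type had promoter peaks in their own sort, 7 of 8 in microglia (not Aif1) and 8 of 8 in each kind of nuclei. Microglia also had promoter peaks for 6 of 8 oligodendrocyte-lineage markers, with a summed level of 386.3 to 470.1 tags. The same held for 3 of 8 neuronal markers, at 231.2 to 423.4 tags, and 3 of 6 endothelial markers, at 196.8 to 283.5 tags. In NeuN+ nuclei 5 of 8 oligodendrocyte-lineage markers had a peak, at 97.0 to 200.0 tags. In Olig2+ nuclei 5 of 8 neuronal markers had one, at 166.0 to 179.5 tags. Of 6 blood myeloid markers, 2 had a peak in microglia, with summed levels of 79.5 and 73.7 tags in WT and 186.1 and 89.1 tags in SgshKO, and Ccr2, Ly6c2, Plac8 and S100a9 had none. At Sgsh, the promoter peak at -13 bp held 34.5 and 22.6 tags in WT and 9.07 and 13.3 tags in SgshKO NeuN+ nuclei. The Olig2+ peak at -10 bp was not called. In microglia the highest promoter peak was another one, 504 bp downstream of the start, and it was not called either. The nature of the SgshKO allele is not given in the sources used here, so these peaks do not check the genotype labels.

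Promoter sequence was taken from RefSeq (GRCm38.p6, the assembly also called mm10), as windows from 250 bases before to 50 bases after each start. Of the 87 genes, 75 matched, with 80 windows among 32851 windows of all genes. The NRF1 letters (GCGC, any base, TGCGC) stood in 21 of 80 member windows (26.3%) and in 4.60% of all windows. The ETS letters CCGGAAG stood in 22.5% against 8.86%, the YY1 letters AAGATGGC in 15% against 2.75%, and the cyclic AMP element TGACGTCA in 5% against 1.79%. The ERR letters TCAAGGTCA were found in 2.5% of member windows and 0.423% of all. The E-box TCACGTGA of lysosomal genes stood in 2.5% and 0.974%, and the GC box GGGCGG in 46.3% and 35.7%. Each 2.5% stands for 2 of 80 windows, and for the E-box both are overlapping windows of the same gene, Ndufa7. Both strands were searched, and overlaps between motifs were allowed. The member windows belong to genes with a promoter peak, while the windows of all genes include genes with none. Of microglial promoter peaks that overlapped a window, 1157 had the NRF1 letters there and 9524 did not. For member peaks these counts were 16 and 55. The median GC content was 58% for member windows and 52.7% for all windows. The part of either in these shares was not tested. The letters describe the sequence and not the binding of a factor.

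The 250 bases before the start are shown for 4 genes whose peaks carry the results below. Capitals mark matches to any of the 7 motifs, and all runs read 5′ to 3′ on the strand of the gene.
Ndufb4 (GRCm38.p6 chr16:37654369-37654618, minus strand): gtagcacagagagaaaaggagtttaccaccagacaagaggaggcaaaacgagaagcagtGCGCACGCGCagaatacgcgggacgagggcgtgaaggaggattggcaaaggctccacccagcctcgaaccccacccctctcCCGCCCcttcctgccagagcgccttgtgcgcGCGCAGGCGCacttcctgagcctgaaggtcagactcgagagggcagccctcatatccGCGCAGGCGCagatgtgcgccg
Cox6a1 (chr5:115348959-115349208, minus strand): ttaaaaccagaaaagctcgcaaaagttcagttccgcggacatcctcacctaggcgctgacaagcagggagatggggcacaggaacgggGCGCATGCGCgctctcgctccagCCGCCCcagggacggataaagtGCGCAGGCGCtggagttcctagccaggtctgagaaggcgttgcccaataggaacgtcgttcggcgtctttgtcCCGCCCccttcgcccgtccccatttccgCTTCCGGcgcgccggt
Uqcc2 (chr17:27133892-27134141, minus strand): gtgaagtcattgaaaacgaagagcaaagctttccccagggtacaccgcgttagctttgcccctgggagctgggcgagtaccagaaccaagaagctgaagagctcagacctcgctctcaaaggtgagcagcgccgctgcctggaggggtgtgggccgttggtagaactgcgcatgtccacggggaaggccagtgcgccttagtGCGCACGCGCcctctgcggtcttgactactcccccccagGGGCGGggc
Ndufv3 (chr17:31519865-31520114, plus strand): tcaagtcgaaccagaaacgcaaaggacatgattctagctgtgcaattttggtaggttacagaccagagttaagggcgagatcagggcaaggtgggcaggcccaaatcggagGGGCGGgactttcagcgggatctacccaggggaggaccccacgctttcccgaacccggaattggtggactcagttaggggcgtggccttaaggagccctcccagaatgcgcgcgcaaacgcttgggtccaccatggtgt
Ndufb4, an accessory subunit of the membrane arm of complex I, had the NRF1 letters 3 times, starting 191, 79 and 22 bases before the start. Cox6a1, a nuclear subunit of complex IV, had them at 162 and 117 bases, and an ETS match at 16 bases. Uqcc2, an assembly factor for cytochrome b of complex III, had them once, at 48 bases, with a GC box at 9 bases. Ndufv3, an accessory subunit beside the NADH-binding site of complex I, had a GC box at 139 bases and none of the other motifs.

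Many of these start sites are shared with a neighbour. An opposite-strand start lay within 500 bases upstream for 22 of 80 member windows (27.5%), against 9.86% of all windows. The neighbours were, for example, Kin for Atp5c1, Kbtbd4 for Ndufs3, Timm8b for Sdhd, Ccdc127 for Sdha and Tepsin for Ndufaf8. A peak between such starts cannot be given to either gene alone. RefSeq lists 99 protein-coding genes of the name patterns, and 13 had no member peak. For some of these the peak over the start carried the name of the neighbour, as Pdcd11 at Atp5md, Cpsf2 at Ndufb1 and Fam126b at Ndufb3. No peak overlapped the promoter windows of the tissue-restricted isoforms Cox8b and Cox7b2 in any sort.

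In the sorted nuclei the member peaks stood above promoters at large in level. The median level was 52.4 tags for microglia, 42.7 for NeuN+ and 54.7 for Olig2+ nuclei, beside 49.0, 24.5 and 33.5 tags for all peaks within 1000 bp of a start. Scaled to peak length, the WT median was 172 tags per kb for microglia, 187 for NeuN+ and 238 for Olig2+ nuclei, beside 189, 109 and 129 for all promoter peaks. The highest WT level per kb belonged to Ndufs8, an iron-sulfur subunit of complex I, in microglia (1321 tags per kb), to Uqcrq, a small subunit of complex III, in NeuN+ nuclei (1054), and to Ndufa6, an accessory subunit of complex I, in Olig2+ nuclei (1502). Most genes had 1 peak: 52 of 84 in microglia and 48 of 77 in each kind of nuclei. A mean below 20 reads per library was found for 16, 26 and 11 member peaks in that order. Some calls named below were at such peaks and rest on few reads. They include both falls in microglia, those of Cox7a1 and Atp5k and the Cox7b rise in NeuN+ nuclei. In Olig2+ nuclei they include the Atp5g2 rise and the Uqcc2 fall. What size of change could be resolved there was not tested.

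The first comparison asked how loss of Sgsh changed these promoters in microglia. In SgshKO microglia 14 of 117 member peaks were higher and 2 were lower (limma on log2(tags + 1), Benjamini-Hochberg adjusted p below 0.05 over all 91770 peaks). Over all peaks within 1000 bp of a start, 8.59% were called higher and 1.2% lower, and over all peaks 5.05% and 2.33%, so that the members' 12.0% and 1.71% lay near those of promoters at large. The median change was 0.11 on the log2 scale, beside 0.03 for promoter peaks and -0.08 for all peaks. The 14 peaks belonged to 13 genes of all 5 enzyme complexes. In each the 2 SgshKO libraries lay above the 2 WT libraries, which follows largely from choosing peaks by p. Of all 117 members, called or not, 46 lay so and 25 had both SgshKO libraries below. In bulk sorted samples a change in the mix of cells and a change per cell cannot be told apart.

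In complex I, the peak over the Ndufv3 start held 249.8 and 181.3 tags in WT microglia and 510.8 and 620.1 in SgshKO. It rose by 1.40 ± 0.26 (log2, SE, n = 2 per group, adjusted p = 0.000488), the smallest p among the members of this sort. Ndufb4 held 39.8 and 29.6 tags in WT and 102.2 and 93.8 in SgshKO, a rise of 1.48 ± 0.34 (adjusted p = 0.00452). Ndufc1, another accessory subunit, rose from 59.6 and 49.1 to 129.0 and 172.7 tags, by 1.45 ± 0.31. The assembly factor Ndufaf8 rose as well, by 0.96 ± 0.29. No core subunit passed: Ndufv1, which binds NADH and FMN, held 133.1 and 153.3 tags in WT and 261.4 and 201.4 in SgshKO, and its change of 0.68 ± 0.28 had an adjusted p of 0.135. The lower calls were 2 weak peaks downstream of a start. They were Ndufa8 at 407 bp, with 14.7 and 28.0 tags in WT and 5.19 and 5.57 in SgshKO, and Ndufaf1 at 196 bp, with 13.0 and 10.2 against 2.60 and 2.79 tags.

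Sdhc, a membrane anchor of complex II, held 64.8 and 62.7 tags in WT and 170.6 and 150.4 in SgshKO microglia, a rise of 1.32 ± 0.30 (adjusted p = 0.0047). The catalytic subunit Sdha was seen only through a peak 263 bp downstream of its start (19.9 and 24.6 against 28.6 and 18.6 tags), which did not differ beyond the spread of its libraries. In complex III, Uqcrq held 54.5 and 40.7 tags in WT and 89.2 and 189.4 in SgshKO, and its rise of 1.45 ± 0.34 came with a wide spread between the SgshKO libraries. Uqcc2 rose from 32.8 and 42.4 to 95.2 and 122.5 tags, by 1.51 ± 0.33 (adjusted p = 0.00335). The Rieske iron-sulfur subunit Uqcrfs1 (0.04 ± 0.29) and the core subunit Uqcrc1 (-0.01 ± 0.42) were not called.

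Complex IV gave 4 of the 14 rises. Cox6a1 held 25.1 and 27.1 tags in WT and 82.2 and 75.2 in SgshKO microglia, and its rise of 1.56 ± 0.36 was the largest among the members called. Cox5b rose by 1.17 ± 0.28, Cox4i1 by 1.03 ± 0.29, and Cox7a2l, a factor for joining complexes III and IV, by 1.18 ± 0.33. Cox5a was not called (0.38 ± 0.27). In ATP synthase, both peaks of Atp5d, the delta subunit of F1, were higher: the one 801 bp upstream went from 262.7 and 255.0 to 483.1 and 480.0 tags, and the one at the start from 125.3 and 116.9 to 233.8 and 216.3. Atp5k, a small Fo subunit, rose by 1.19 ± 0.37. Its start is shared with Gm34319. The catalytic F1 subunit Atp5b held 64.0 and 49.1 tags in WT and 77.9 and 62.2 in SgshKO, and was not called.

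The microglial calls needed both WT libraries. Without WT replicate 1, limma called 1 member higher and 0 lower, and without WT replicate 2 it called 0, with 14 members at an unadjusted p below 0.05. Of all 91770 peaks, 1127 and 541 were still called higher in those fits. Without SgshKO replicate 2 the counts were 24 higher and 4 lower. Of the 14 rises, 12 were called under all 5 scalings and tools compared (the deposited totals, the in-peak sum, the median of ratios, quantile normalization and edgeR with its TMM factors), and all 14 kept their sign. Of the 2 falls, 0 were called under all 5, though both kept their sign, and DESeq2 called 0 members lower. Scaling to the in-peak sum gave 17 members higher and 8 lower, and moved the members' median to -0.08 beside -0.17 for promoter peaks. The blood myeloid marker level was higher in the SgshKO libraries, as given above, mainly in replicate 1, which also had the highest share of tags in peaks (67.4%). The part of either in these results was not tested.

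**Figure D1:**
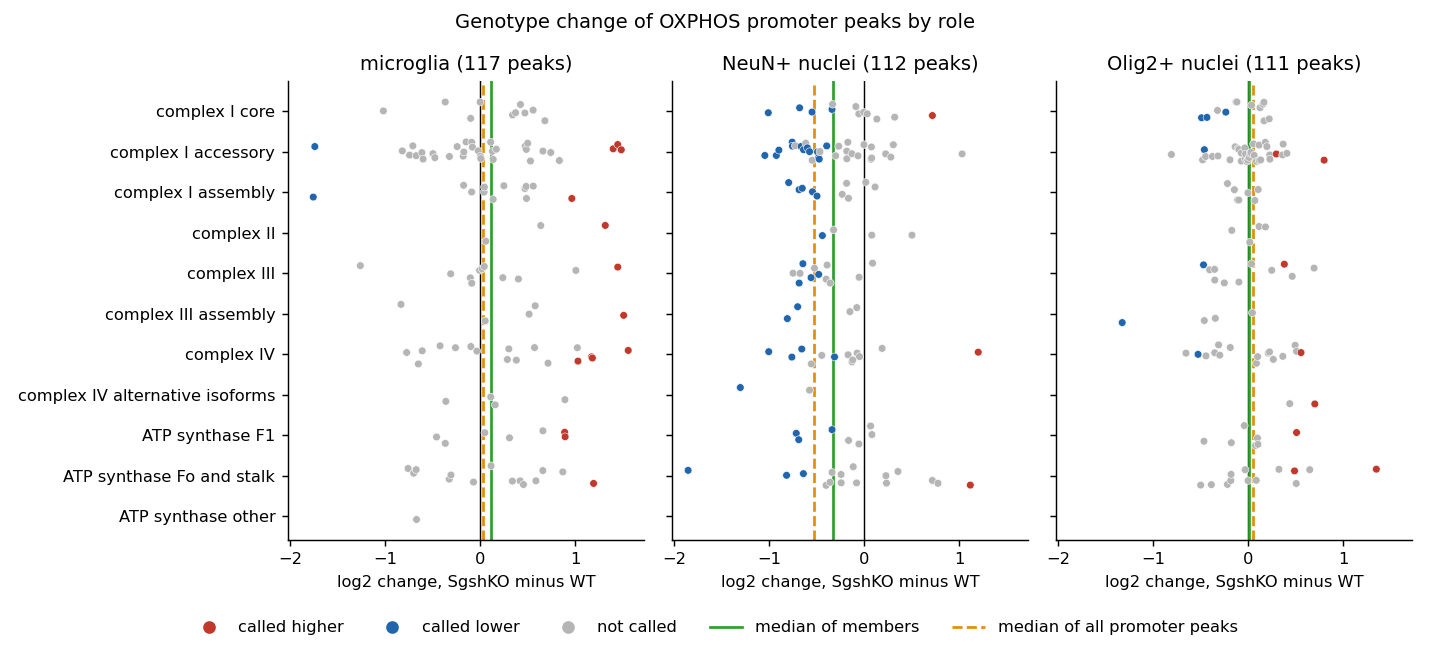
Log2 change from WT to SgshKO (x axis, log2 of tags + 1) of each oxidative phosphorylation promoter peak, in rows by role, for the 3 sorts. Red and blue points were called higher and lower, the green line is the median of the members (0.11, -0.33 and 0.01) and the dashed line that of all promoter peaks (0.03, -0.53 and 0.05).

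In NeuN+ nuclei the direction was the opposite. Of 112 member peaks, 40 were lower in SgshKO and 3 were higher. Promoter peaks at large went the same way and further: 44.9% were called lower and 1.74% higher, while over all peaks 19.6% were lower and 10.2% higher. Members thus stood at 35.7% lower and 2.68% higher, and had a median change of -0.33 beside -0.53 for promoter peaks and -0.23 for all peaks.

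Ndufv3 again had the smallest p in complex I, now as a fall. It held 245.3 and 240.0 tags in WT and 141.0 and 114.9 in SgshKO NeuN+ nuclei, a change of -0.93 ± 0.10 (adjusted p = 8.65e-06). Of the core subunits, Ndufv2 fell from 240.2 and 203.9 to 129.8 and 146.0 tags, by 0.68 on the log2 scale, and Ndufs3, of the ubiquinone-reducing part, fell from 47.0 and 44.6 to 21.6 and 22.9 tags. In all, 22 of 54 complex I peaks were lower (40.7%, beside 44.9% of all promoter peaks). The assembly factor Ndufaf2 (-0.80 ± 0.15) and the accessory subunit Ndufb4 (-0.66 ± 0.12) were among them. A second, weak Ndufv2 peak 407 bp upstream rose instead, from 15.3 and 14.7 to 27.9 and 22.9 tags.

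Sdhb, the iron-sulfur subunit of complex II, held 241.9 and 214.6 tags in WT and 159.1 and 176.5 in SgshKO NeuN+ nuclei, a change of -0.44 ± 0.10 (adjusted p = 0.00267). In complex III, 6 of 16 peaks were lower (37.5%, beside 44.9% of all promoter peaks). Uqcrq, at 439.6 and 403.8 against 318.3 and 286.3 tags, changed by -0.48 ± 0.07, Uqcrfs1 by -0.65 ± 0.17 and Uqcc2 by -0.81 ± 0.13. In complex IV, Cox5a had the smallest p: 86.7 and 83.6 tags in WT and 46.1 and 38.1 in SgshKO, a change of -1.01 ± 0.16 (adjusted p = 0.000161). Cox6a1 was not called (102.5 and 80.2 against 74.0 and 92.7 tags), and its groups overlapped.

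Cox7a1, the subunit isoform known from heart and muscle, had only a weak peak in NeuN+ nuclei, which went from 8.50 and 14.7 tags to 3.49 and 4.44 (-1.30 ± 0.36). Cox7b, on the X chromosome, went the other way, from 6.80 and 2.82 to 10.5 and 12.7 tags. Among ATP synthase peaks, 6 of 23 were lower (26.1%, beside 44.9% of all promoter peaks). Atp5e, the epsilon subunit of F1, held 186.9 and 177.9 tags in WT and 109.6 and 111.7 in SgshKO, a change of -0.72 ± 0.10 (adjusted p = 8.39e-05). Atp5g2, a gene for the c-ring of Fo, changed by -0.64 ± 0.11. The largest decrease was at an intronic Atp5k peak 428 bp downstream of the start, with 7.93 and 6.21 tags in WT and 0.7 and 1.9 in SgshKO. The catalytic Atp5b (98.6 and 89.8 against 74.7 and 94.0 tags) and the gamma subunit Atp5c1 (94.6 and 118.6 against 109.6 and 94.6) were not called.

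How many NeuN+ promoters passed depended on the scaling and on the test. Scaling to the sum within peaks gave 11 members higher and 17 lower, the median of ratios 9 and 25, edgeR 9 and 27, and quantile normalization 7 and 5. DESeq2, which is another test as well as another scaling, gave 1 and 4. The median of the members moved from -0.33 to -0.04 with the in-peak sum and to 0.01 with quantile normalization, and that of promoter peaks to -0.25 and -0.26. Peaks of 5 genes were called lower under all 5: Ndufv3, Ndufs3, Cox5a, Cox7a1 and Atp5k. The upstream Ndufv2 peak was higher under all 5. Without SgshKO replicate 1 or 2 limma called 0 of the 107627 peaks, with 45 and 33 members at an unadjusted p below 0.05, and without WT replicate 1 or 2 it called 21 or 25 members in place of 43. The lower share of tags in peaks in both SgshKO NeuN+ libraries moved with these falls, and its part in them was not tested. Summed marker levels were lower in both SgshKO libraries for the neuronal list (1035 and 940 tags in WT, 549 and 562 in SgshKO) and also for the oligodendrocyte-lineage (200.0 and 175.1, 97.0 and 105.4), microglial (54.4 and 48.0, 34.2 and 32.4) and astrocyte lists (62.3 and 57.0, 44.0 and 34.9).

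**Figure D2:**
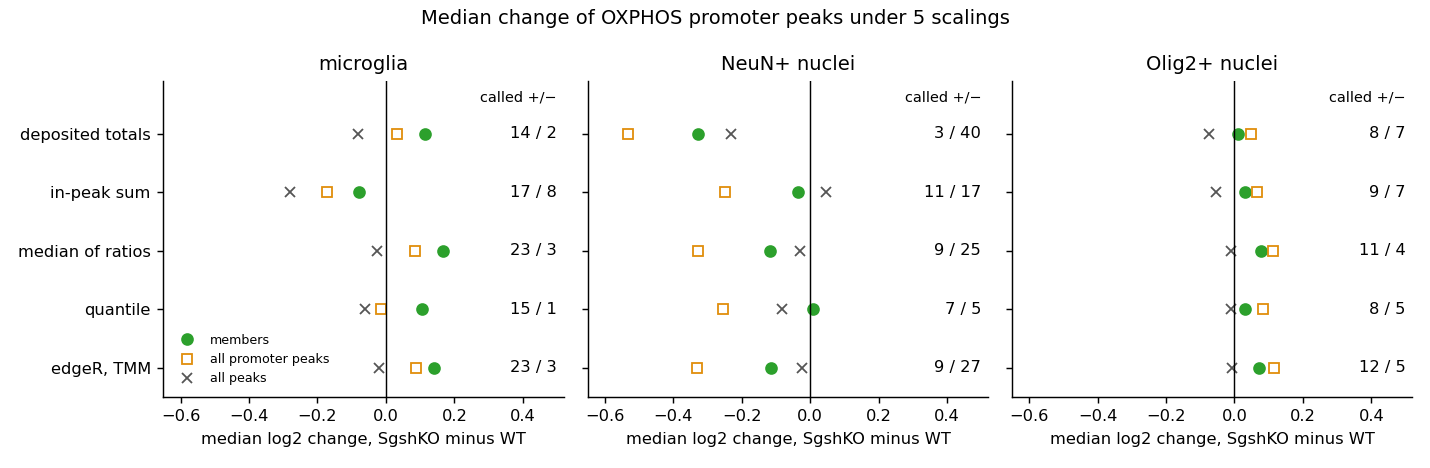
Median log2 change from WT to SgshKO (x axis) of the members, of all promoter peaks and of all peaks, under 5 scalings (rows). The numbers at the right are the member peaks called higher and lower; in NeuN+ nuclei they went from 3 and 40 with the deposited totals to 7 and 5 with quantile normalization, and there the members' median stayed above that of promoter peaks in all 5.

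In Olig2+ nuclei few of these promoters changed. Of 111 member peaks 8 were higher in SgshKO and 7 were lower, 7.21% and 6.31%. Of promoter peaks at large 12.7% were higher and 7.56% lower, and of all peaks 8.17% and 11.7%. The median change was 0.01 for members, 0.05 for promoter peaks and -0.07 for all peaks. Calls went in both directions within complexes I, III and IV.

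Complex I had 2 rises and 4 falls there among 54 peaks (3.70% and 7.41%, beside 12.7% and 7.56% of all promoter peaks). Ndufv1 held 329.4 and 361.5 tags in WT and 268.1 and 242.6 in SgshKO, a change of -0.43 ± 0.08 (adjusted p = 0.000272). The core subunits Ndufs7 and Ndufs8 were lower too, with changes of -0.49 ± 0.18 and -0.24 ± 0.07. Ndufc1 rose from 44.6 and 39.4 to 79.9 and 67.8 tags (0.80 ± 0.16), as it did in microglia. No peak of complex II was called. In complex III, Uqcrq fell from 206.4 and 190.2 to 149.4 and 136.3 tags (-0.47 ± 0.10), Uqcrfs1 rose (0.38 ± 0.13), and a weak upstream Uqcc2 peak (-439 bp) fell from 10.4 and 15.3 to 4.92 and 3.99 tags.

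In complex IV, Cox5b held 148.3 and 137.0 tags in WT and 205.4 and 214.7 in SgshKO Olig2+ nuclei, a rise of 0.56 ± 0.10 (adjusted p = 0.000173). Cox7c fell from 91.3 and 78.8 to 57.2 and 59.8 tags (-0.53 ± 0.15). Cox6b2, the isoform known from testis, rose from 19.7 and 15.8 to 26.4 and 32.6 tags. In ATP synthase 3 of 20 peaks rose and 0 fell (15% and 0%, beside 12.7% and 7.56% of all promoter peaks). Atp5c1, whose start faces that of Kin, rose from 115.7 and 124.8 to 168.5 and 174.2 tags (0.51 ± 0.11), and an intronic Atp5g2 peak 579 bp downstream from 7.26 and 3.58 to 12.9 and 16.6. Of the 15 calls, 7 of the 8 rises and 4 of the 7 falls were made under all 5 scalings, and the median of ratios gave 11 higher and 4 lower. Without WT replicate 1 or 2, 7 members were called. The oligodendrocyte-lineage marker list summed to 2772 and 2750 tags in WT and 2344 and 2307 in SgshKO.

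Genes called in 1 sort were next set beside the others, each sort having its own controls. Of the 13 genes with a rise in microglia, 8 had a peak that fell in NeuN+ nuclei (61.5% of the 13, and 21.6% of the 37 genes with a fall): Ndufv3, Ndufb4, Ndufc1, Uqcrq, Uqcc2, Cox7a2l, Atp5d and Atp5k. Of all genes with a promoter peak in NeuN+ nuclei, 57.6% had their highest promoter peak called lower. These shares are not alike: that of the 13 counts any member peak. It also includes Cox4i1 and Ndufaf8, which had no member peak in NeuN+ nuclei and could not fall there. For Atp5k the fall was at the intronic peak, and the peak at its start was not called (0.35 ± 0.21). None of the 13 had a rise in NeuN+ nuclei, beside 1.49% of all genes with a promoter peak there. Cox5b and Ndufc1, 15.4% of the 13, also rose in Olig2+ nuclei. Uqcc2 and Uqcrq, again 15.4%, were lower in both kinds of nuclei and higher in microglia. The Uqcc2 call in Olig2+ nuclei was at its upstream peak. Of all genes with a promoter peak in Olig2+ nuclei, 16.4% had their highest promoter peak called higher and 8.38% lower.

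The difference between the genotype effects was tested in 1 model over all 12 libraries, on peaks that matched one to one between the 3 tables with at least 50% overlap each way. There were 16761 such peaks, 10516 of them within 1000 bp of a start, and 63 were members, at 58 genes. The effect in microglia exceeded that in NeuN+ nuclei at 32 of 63 member peaks and was below it at 0. Shared promoter peaks gave 55.1% and 0.808%. Against Olig2+ nuclei the counts were 19 and 0, beside 23.9% and 3.95% of shared promoter peaks. For NeuN+ against Olig2+ nuclei they were 0 above and 14 below, beside 0.561% and 41.4%.

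Ndufv3 had the smallest p among the members in the first 2 contrasts. Its shared peak rose in microglia as given above, held 247.4 and 227.0 tags in WT and 236.1 and 241.3 in SgshKO Olig2+ nuclei, and fell in NeuN+ nuclei. The genotype effect in microglia exceeded that in NeuN+ nuclei by 2.32 ± 0.21 (log2, SE, limma adjusted p = 9.43e-09) and that in Olig2+ nuclei by 1.39 ± 0.21 (adjusted p = 4.72e-05). Ndufb4 differed by 2.15 ± 0.23 between microglia and NeuN+ nuclei. Sdhc differed by 1.49 ± 0.24 between microglia and Olig2+ nuclei, where it held 64.3 and 71.6 tags in WT and 59.6 and 60.5 in SgshKO. Between NeuN+ and Olig2+ nuclei the smallest p belonged to Cox5a (-1.23 ± 0.23, adjusted p = 0.000514) and then to the upstream Atp5d peak (-0.79 ± 0.18).

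These differences moved with the scaling too. Microglia against NeuN+ nuclei gave 7 above and 12 below with the in-peak sum, 14 and 5 with the median of ratios, 7 and 6 with quantile normalization and 13 and 5 with edgeR. Peaks of 6 genes were called above in all 5: Ndufv3, Ndufb4, Sdhc, Uqcc2, Cox6a1 and Cox7a2l. For microglia against Olig2+ nuclei the counts were 10 and 4, 14 and 1, 11 and 1, and 14 and 2 in the same order, and 10 of the 19 were called in all 5. They were those 6 with Ndufv1, Ndufa13, Uqcr11 and Atp5d. For NeuN+ against Olig2+ nuclei the split of 0 and 14 became 5 and 1 with the in-peak sum, quantile normalization and edgeR and 3 and 1 with the median of ratios, and only Cox5a, of the 14, was called below in all 5.

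**Figure D3:**
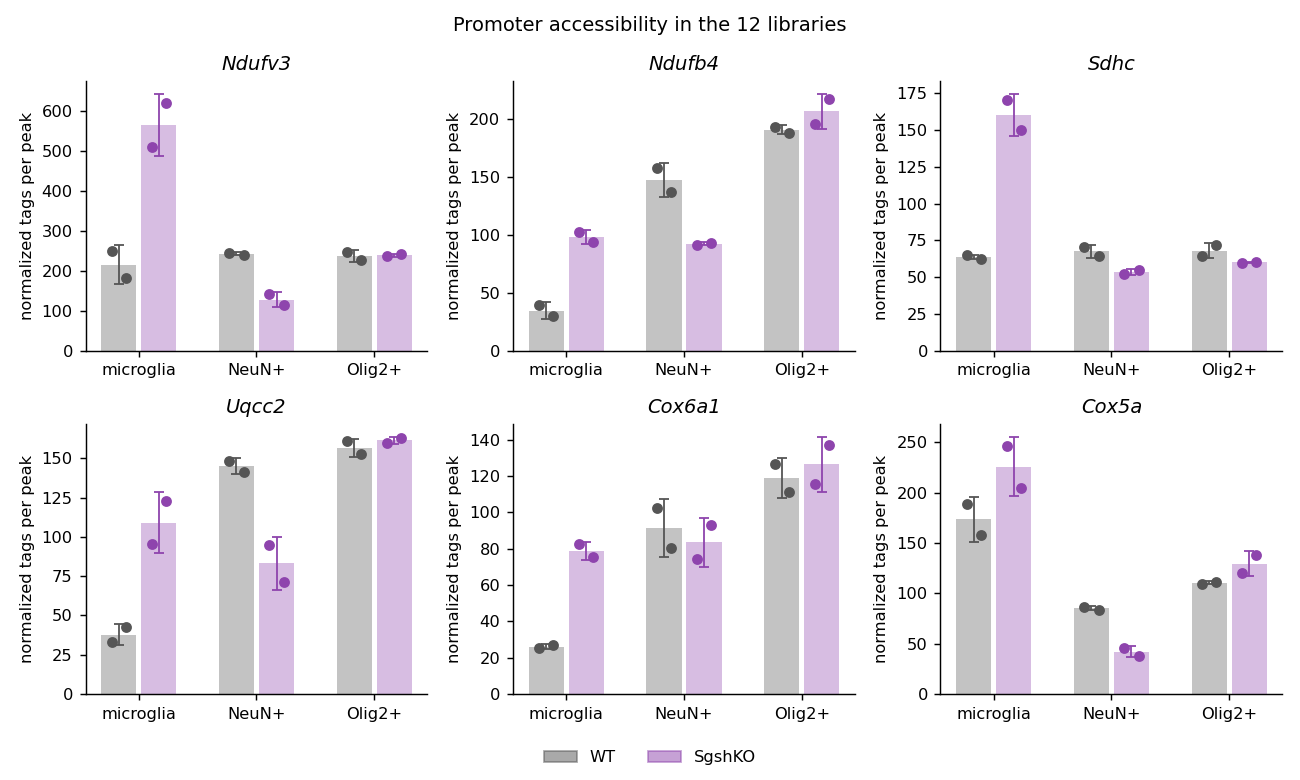
Normalized tags (y axis, linear from 0) at the shared promoter peak of 6 genes in the 12 libraries. Points are libraries, bars their mean and whiskers the SD (n = 2); SgshKO microglia stand above WT microglia in all 6 panels, and Ndufb4, Uqcc2 and Cox6a1 were lowest in WT microglia.

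Among WT libraries the 3 sorts were then compared at the same 63 shared peaks. WT microglia were higher than WT NeuN+ nuclei at 18 peaks and lower at 16, beside 41.9% and 25.2% of shared promoter peaks. Against WT Olig2+ nuclei 16 were higher and 24 lower, beside 39% and 31.1%. WT NeuN+ nuclei were higher than WT Olig2+ nuclei at 3 and lower at 22, beside 19.6% and 32.5%. The median differences of the members were -0.04, -0.15 and -0.32, and those of shared promoter peaks 0.26, 0.15 and -0.16. At 15 peaks no contrast was called, and at 9 all 3 were.

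Some promoters that rose in SgshKO microglia had a low level in WT microglia. Ndufb4 held 39.8 and 29.6 tags in WT microglia, 157.5 and 137.2 in WT NeuN+ nuclei and 193.5 and 188.2 in WT Olig2+ nuclei. The differences of the microglial level from these were -2.07 ± 0.16 (adjusted p = 1.53e-10) and -2.44 ± 0.16 on the log2 scale. Uqcc2 held 148.4 and 141.2 tags in WT NeuN+ and 160.8 and 152.4 in WT Olig2+ nuclei, and Cox6a1 102.5 and 80.2 and 126.6 and 111.0. The differences of WT microglia from WT NeuN+ and WT Olig2+ nuclei were -1.93 and -2.04 for Uqcc2 and -1.76 and -2.14 for Cox6a1. The same WT microglia libraries are the controls of the microglial genotype comparison, so the low level and the rise are not independent. Ndufaf4 (-1.86 against NeuN+ and -1.72 against Olig2+ nuclei) and Uqcrh (-1.17 and -1.87) were also low in WT microglia and were not called in SgshKO microglia.

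Other promoters were highest in WT microglia. An intronic Cox7c peak 292 bp downstream of the start held 70.0 and 66.1 tags there, 7.93 and 7.34 in WT NeuN+ nuclei and 9.85 and 9.72 in WT Olig2+ nuclei (differences of 3.00 ± 0.31 and 2.68 ± 0.31). The Cox7c peak at the start itself was called in neither of those contrasts. Uqcrc2, a core subunit of complex III, held 185.8 and 174.5 tags in microglia against 63.4 and 63.8 in NeuN+ nuclei, a difference of 1.49 ± 0.18. An intronic Ndufa12 peak, with 78.6 and 67.8 tags in microglia and 19.2 and 16.9 in Olig2+ nuclei, was higher in microglia than in Olig2+ nuclei by 1.96 ± 0.27.

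Of the 2 kinds of nuclei, Olig2+ nuclei had the higher level at most peaks called. Ndufs8 held 146.1 and 164.3 tags in WT NeuN+ and 496.9 and 496.5 in WT Olig2+ nuclei (-1.67 ± 0.13, adjusted p = 2.97e-10). Atp5g1, a c-ring gene, held 194.9 and 203.3 against 511.9 and 507.8 (-1.35 ± 0.14). Higher in NeuN+ nuclei were Cox8a, with 132.6 and 154.7 against 80.4 and 82.8 tags (0.80 ± 0.15), Atp5e (0.67 ± 0.15) and Ndufa5. The balance of these calls moved with the scaling. With the in-peak sum they were 12 higher and 32 lower for microglia against NeuN+ nuclei, 14 and 28 for microglia against Olig2+ nuclei, and 12 and 14 for NeuN+ against Olig2+ nuclei. With the median of ratios the same counts were 11 and 33, 10 and 35, and 9 and 18. All 16 and all 24 peaks lower in microglia were called under each of the 5 scalings, against 10 of 18 and 8 of 16 higher peaks. Every other scaling lowered microglia at large, so that mainly higher calls could be lost. The median of all shared peaks went from 0.47 to between -0.06 and 0.06 against NeuN+ nuclei. Against Olig2+ nuclei it went from 0.35 to between -0.05 and 0.22. This split therefore does not tell which differences are firmer.

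**Figure D4:**
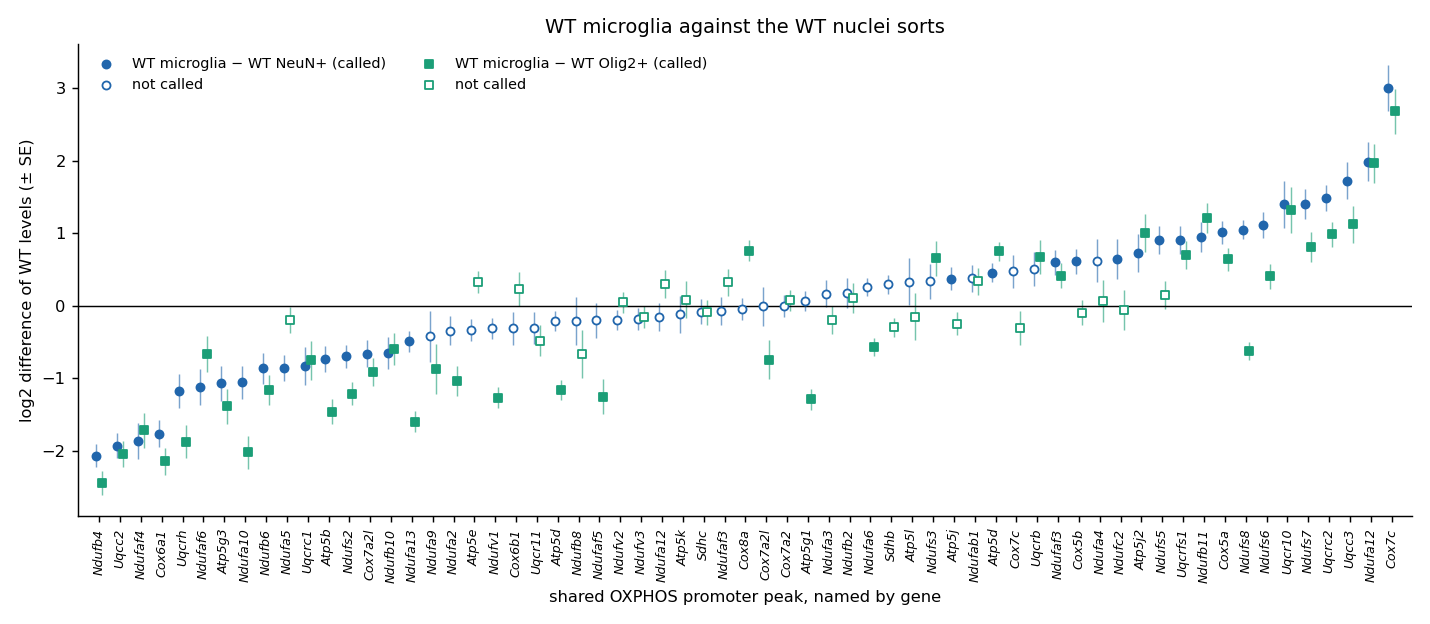
Difference of WT microglia from WT NeuN+ nuclei (circles) and from WT Olig2+ nuclei (squares) at the 63 shared promoter peaks (y axis, log2, bars are SE), ordered by the first. Filled symbols were called; Ndufb4 at -2.07 and -2.44 stands at the left end and the intronic Cox7c peak at 3.00 and 2.68 at the right end.

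Relative to the WT nuclei, WT microglia stood lower at peaks over the NRF1 letters than at peaks without them. A difference does not tell whether the level is low in microglia or high in nuclei, and preparation differed too. Of 12 shared member peaks over a window with them, 7 were lower in WT microglia than in WT NeuN+ nuclei and 2 higher, with a median difference of -0.84. Of 39 over windows without them, 6 were lower and 12 higher, with a median of 0.06. Against WT Olig2+ nuclei the medians were -1.0 and -0.09. The gap was also there over all shared promoter peaks, so that it was not particular to these genes. Against NeuN+ nuclei, 406 of 886 such peaks with the letters were lower and 180 higher, with a median of -0.29. Of 5822 without them, 1502 were lower and 2455 higher, with a median of 0.23. The genotype change in microglia had a median of 0.13 for the 16 member peaks with the letters, of which 4 were called higher, and 0.37 for the 55 without, of which 6 were. Over all promoter peaks of microglia the order of the medians was the opposite, 0.44 for 1157 peaks with the letters and 0.22 for 9524 without. Of these, 251 with the letters and 1245 without were called higher. These are descriptions with no test.

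The members were also split by position within the promoter, with no test of the differences. Within 200 bp of the start, 12 of 72 microglial member peaks were higher and 1 lower. More than 200 bp downstream, 0 of 29 were higher and 1 was lower, and more than 200 bp upstream 2 of 16 were higher and 0 lower. All promoter peaks had 13.7% higher and 0.792% lower within 200 bp, 1.74% and 1.60% further downstream, and 6.75% and 1.63% further upstream. In NeuN+ nuclei 33 of 70 peaks within 200 bp were lower (47.1%, beside 57.2% of all promoter peaks there). Further downstream 4 of 26 were lower (15.4%, beside 31.8% of all promoter peaks there). Further upstream 2 of 16 were higher (12.5%, beside 3.79%) and 3 lower (18.75%, beside 29.7%). In Olig2+ nuclei 7 of 77 peaks within 200 bp were higher (9.09%, beside 16.2%) and 5 lower (6.49%, beside 7.77%). Further downstream 1 and 0 of 18 were (beside 7.70% and 6.07%), and further upstream 0 and 2 of 16 (beside 9.82% and 9.18%). Median member levels within 200 bp, downstream and upstream were 73.3, 21.7 and 32.6 tags in microglia. They were 61.2, 9.41 and 11.3 in NeuN+ and 78.2, 13.4 and 14.8 in Olig2+ nuclei. Their part in these counts was not tested. With 1 peak per gene, the highest, members had 13 of 84 higher in microglia (15.5%, beside 13.4% of genes with a promoter peak) and 35 of 77 lower in NeuN+ nuclei (45.5%, beside 57.6%).

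**Figure D5:**
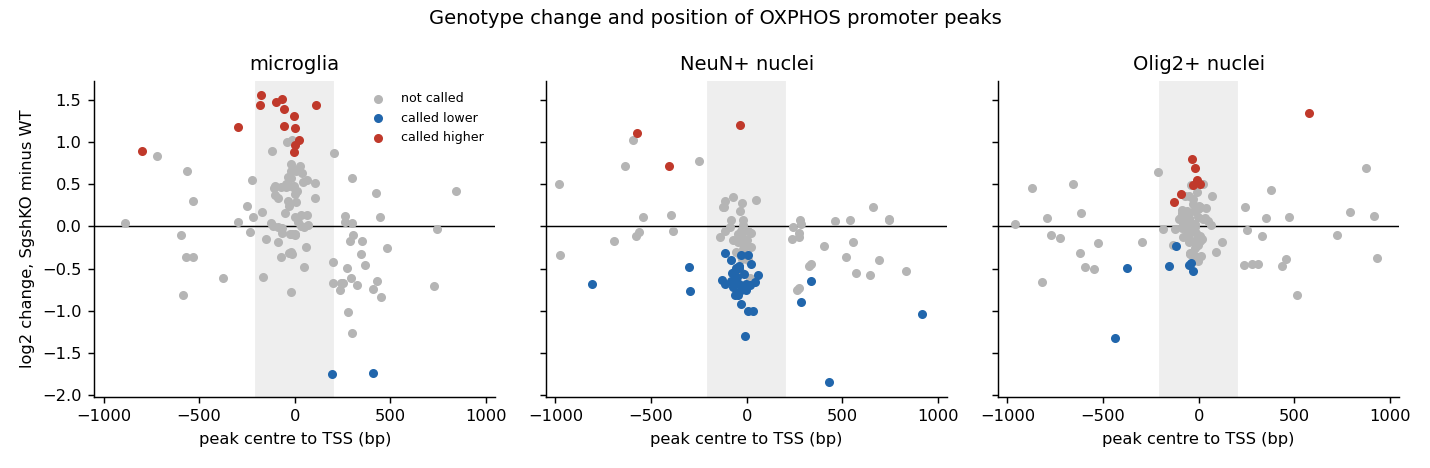
Log2 change from WT to SgshKO (y axis) against the distance of the peak centre from the start site (x axis, bp, negative upstream) for the members of the 3 sorts. Colours mark the calls and the grey band spans 200 bp to each side of the start. In microglia it held 12 of the 14 rises and 72 of the 117 members. In NeuN+ nuclei it held 33 of the 40 falls and 70 of the 112 members. Median member levels were lower on both sides of it.

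Isoform pairs were followed where a peak existed. Cox4i1, the general form of the subunit, had a member peak in microglia and Olig2+ nuclei, with 120.1 and 87.3 tags and 191.9 and 175.4 tags in WT. Cox7a2, the general partner of Cox7a1, held 156.4 and 138.9 tags in WT microglia, 141.6 and 154.7 in NeuN+ and 136.4 and 143.7 in Olig2+ nuclei, and was called in no contrast of the WT sorts. It fell in SgshKO NeuN+ nuclei (-0.66 ± 0.12) and was not called in the other sorts. Cox7a1 held 89.9 and 80.5 tags in WT and 181.8 and 138.3 in SgshKO microglia, which was not called (0.89 ± 0.30, adjusted p = 0.0599). Ndufa4, now counted as a complex IV subunit, was called in no sort. Its hypoxia-induced relative Ndufa4l2 had a weak peak in microglia and in NeuN+ nuclei and was called in neither. Of the fixed representatives not yet given, Ndufs1, an iron-sulfur core subunit of complex I, held 28.5 and 22.9 tags in WT and 11.3 and 13.0 in SgshKO microglia, at a peak 277 bp downstream, and was called in no sort. Uqcrc1 was not called in either kind of nuclei.

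A list of 50 other genes of the pathway, mostly assembly factors and electron carriers that the name patterns miss, was read the same way. In microglia 11 of 67 promoter peaks were higher and 3 lower, in NeuN+ nuclei 0 of 63 and 33, and in Olig2+ nuclei 5 of 59 and 11. Of all promoter peaks, 8.59% were higher and 1.2% lower in microglia, 1.74% and 44.9% in the NeuN+ table, and 12.7% and 7.56% in the Olig2+ table. The list stood at 16.4% and 4.48%, 0% and 52.4%, and 8.47% and 18.6% in that order. The medians were 0.18, -0.40 and -0.13. Tmem126b, an assembly factor of complex I, held 311.1 and 230.4 tags in WT and 732.4 and 647.1 in SgshKO microglia (1.36 ± 0.25), and 269.6 and 264.3 against 155.7 and 158.1 in NeuN+ nuclei (-0.76 ± 0.09). Sdhaf1, which helps insert iron-sulfur clusters into complex II, fell in NeuN+ nuclei from 208.4 and 209.0 to 105.4 and 103.5 tags. Cyc1, the cytochrome c1 of complex III, fell there as well (-0.92 ± 0.13). In Olig2+ nuclei Coa3, an assembly factor of complex IV, fell from 105.3 and 105.3 to 57.2 and 58.5 tags.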

How the data were processed

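ATAC-seq libraries were sequenced single end and were aligned with Bowtie2 to mm10 and processed with HOMER, per the submitters' processing notes; no version of either is given here. The deposited tables, 1 per sort, list merged peaks with a HOMER peak score (540 to 1000, not used in any test), the nearest gene and the signal of each library as tag counts normalized by the authors to 10000000 tags, per the file headers. Whole reads were recovered from the deposited signal (value times library total over 10000000); 100% of values came out whole within 0.01. Library totals and shares of tags in peaks are given in the text.

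Member peaks, gene lists and splits were chosen with earlier results of these data known. Each table was fitted whole with limma 3.58.1 (R 4.3.3, trended prior) on log2(tags + 1), 2 against 2 libraries, with Benjamini-Hochberg adjustment over all peaks and a threshold of 0.05; no peak was filtered out. Contrasts across sorts used 1 model of 6 group means on peaks with 50% reciprocal overlap. Peaks named were, per sort, the smallest p in each role group, up to 3 largest increases and decreases among called peaks with separate groups, fixed representatives and isoform pairs, and, per contrast across sorts, the 2 smallest p in each direction; others named in the text were chosen after their values were seen. Alternatives were edgeR 4.0.16 (quasi-likelihood, TMM) and DESeq2 1.42.0 on the recovered counts, 3 other scalings, other pseudocounts, filters and windows, a replicate block, and leaving out each library. The fits were tested on simulated data. Normalized levels from the 3 tables share the same scale, but peaks were merged per sort.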

Additional observations from a re-analysis of the deposited data

Results flagged for a closer look

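At 5 shared promoter peaks, in 6 differences, the genotype effect differed between sorts by a test of the difference itself, among the 2 smallest p per contrast and direction. Ndufv3 differed by 2.32 between microglia and NeuN+ nuclei and by 1.39 between microglia and Olig2+ nuclei. Ndufb4 differed by 2.15 between microglia and NeuN+ nuclei, and Sdhc by 1.49 between microglia and Olig2+ nuclei. Between NeuN+ and Olig2+ nuclei, Cox5a differed by -1.23 and the upstream Atp5d peak by -0.79, all on the log2 scale. The first 5 of these differences, which share libraries within a contrast, were called under all 5 scalings, and that of Atp5d between the 2 kinds of nuclei was not.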

How the results depend on the processing

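With 2 libraries per group, leaving out 1 gives a group of 1 library, assumed to vary like the others. The count of members called, 16 in microglia, was 25 with the in-peak sum and 26 each with the median of ratios, edgeR and the replicate block; without each library in turn it ran from 0 to 28. In NeuN+ nuclei 43 became 28 with the in-peak sum, 12 with quantile normalization and 5 with DESeq2, and ran from 0 to 25 without each library. In Olig2+ nuclei 15 became 5 with DESeq2 and ran from 7 to 18. The genotype difference between microglia and NeuN+ nuclei, 32, was 19 with the in-peak sum and with the median of ratios, 13 with quantile normalization and 18 with edgeR; between microglia and Olig2+ nuclei, 19 became 12 with quantile normalization; between NeuN+ and Olig2+ nuclei, 14 became 6, 4, 6 and 6 in the same order and ran from 7 to 21. Other pseudocounts and the filter left all 9 counts within 1.5 times. Leaving out the sex chromosomes, the 500 bp window and 1 peak per gene, run for the 3 counts within a sort only, and the 1 bp overlap, run for the 6 counts across sorts, did so too, as did the replicate block outside microglia (47 in NeuN+ and 15 in Olig2+ nuclei). The labels do not say what same-numbered libraries of the 2 genotypes share. Their deviations from the group means correlated by 0.042, 0.0036 and 0.00069 in the 3 sorts. In microglia replicate 1 had the higher share of tags in peaks in both genotypes. The cause of these shifts was not tested.

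Of 97 comparisons of named peaks, 16 changed sign in some setting, 4 of them called. Those 4, in NeuN+ nuclei, did so with quantile normalization only: Sdhb 0.13, Uqcrq 0.058, Ndufv1 0.23 and Cox8a 0.25. The uncalled ones in NeuN+ nuclei, with the in-peak sum, median of ratios, quantile normalization, edgeR and DESeq2, were Atp5b at 0.13, 0.049, 0.36, 0.067 and 0.062, Atp5c1 at 0.24, 0.16, 0.49, 0.15 and 0.15 (-0.22 to 0.11 without each library), Cox6a1 at 0.17, 0.085, 0.39, 0.094 and 0.089 (-0.30 to 0.046) and Ndufa4 at 0.24, 0.16, 0.090, 0.16 and 0.17 (-0.27 to 0.17). In microglia Sdha was -0.14 with the in-peak sum (-0.24 to 0.36), Uqcrfs1 -0.16 with it and -0.25 with quantile normalization (-0.15 to 0.24), and Uqcrc1 0.047, 0.10, 0.061 and 0.060 in the last 4 settings (-0.41 to 0.39). In Olig2+ nuclei Sdhb was -0.022 with quantile normalization (-0.027 to 0.059), and without each library Atp5b ran from -0.00089 to 0.15, Cox6a1 from -0.036 to 0.21, Cox7a2 from -0.043 to 0.24 and Ndufa4 from -0.015 to 0.54. Depth limits peaks under 20 reads.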

Other observations

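Peaks named for the same genes but more than 1000 bp from a start were counted apart from the promoters. Of 157 such peaks in microglia 4 were higher in SgshKO and 2 lower. The counts were 18 and 34 of 254 for NeuN+ nuclei, and 19 and 32 of 216 for Olig2+ nuclei. As shares these were 2.55% and 1.27%, 7.09% and 13.4%, and 8.8% and 14.8%, beside 5.05% and 2.33%, 10.2% and 19.6%, and 8.17% and 11.7% of all peaks. The smallest p in microglia was at a peak nearest the start of Uqcr10 (chr11:4674626-4674850, mm10), which lies 29606 bp downstream of that start in an intron of Ascc2. It held 18.1 and 33.0 tags in WT and 229.4 and 176.4 in SgshKO (2.99 ± 0.34, limma adjusted p = 2.24e-07). A peak inside an intron of Sdhb, 10576 bp from its start, went from 1.73 and 4.24 to 19.1 and 36.2 tags, while the Sdhb promoter was not called.

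In Olig2+ nuclei the smallest p beyond the window was at a peak named for Cox4i2, 31492 bp from that start in an intron of Bcl2l1. It held 230.3 and 214.3 tags in WT and 101.5 and 85.8 in SgshKO (-1.24 ± 0.11). An intronic Ndufs7 peak 4950 bp from the start fell from 91.3 and 87.4 to 33.2 and 25.9 tags (-1.57 ± 0.17). In NeuN+ nuclei a peak upstream of Cox7a2l (-3472 bp) rose from 14.7 and 15.8 to 43.3 and 43.8 tags (1.45 ± 0.21), where the promoter fell. These peaks were picked for their small p and are named only for the nearest start.

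Just inside the window lay, in microglia, peaks of Ndufaf6 at -888 bp, with a WT mean of 19.3 tags, and of Ndufs8 at 846 bp downstream, with 9.38 tags. Just outside lay peaks of Cox6b2 at 1024 bp, with 9.84 tags, and of Cox5a at 1072 bp, with 12.8 tags.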
